A study of Caenorhabditis elegans with 3 samples.

Results

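Metallothioneins, ferritins and metal transporters of the NRAMP type were followed in mid-L3 hermaphrodites of the nematode *Caenorhabditis elegans*. The set was given by name as 7 genes, *mtl-1*, *mtl-2*, *ftn-1*, *ftn-2*, *smf-1*, *smf-2* and *smf-3*, and a gene was taken where a probe carried that single symbol in the platform's annotation. This found 6 of the 7 genes, each with 1 probe, among 14936 named genes and 19075 features tested. No probe of *smf-3* was identified in the annotation used here, so *smf-3* was not analysed. L3 precedes the final larval stage, L4, of the worm. Each of 3 arrays of 2 colours carried RNA of 1 mid-L3 prep in its second channel and a wild-type reference RNA, which the labels call mixed, in its first. The labels precede mid-L3 with the code TP01, which they do not explain, and give no treatment, food, metal content of the medium or age in hours. The title of each array ends in a different string that looks like a date and is not explained. Prep and such a date cannot be told apart. The labels do not say whether the 3 preps came from separate cultures, so the p-values measure only the spread between these preps.

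Metallothioneins are small, cysteine-rich proteins that bind zinc, cadmium and copper. Ferritin stores iron inside a protein shell, and the worm has a pair of genes for it. The *smf* genes encode membrane transporters related to mammalian DMT1 that carry manganese, iron and other divalent metals into the cell. In the worm most of these genes are used in the intestine, where metals are taken up from food, and *mtl-1* is also known for expression in the pharynx without added metal.

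All values are log2 ratios of the 2 channels, centred on the median of each array, and they are ratios to the reference and not levels. A mean ratio was called where limma's Benjamini-Hochberg adjusted p was under 0.05. The numerator is not stated, so signs are given as deposited. Mid-L3 over reference is the likely direction: the labels name mid-L3 before the reference, and 12 of 14 oocyte and eggshell genes, whose products mid-L3 animals are not known to make in quantity, were negative, with a median of -2.79. They were led by *cpg-3* at -4.16 ± 0.97 (mean ± SD over the 3 preps, here and below), *perm-2* at -4.05 ± 0.34 and *perm-4* at -3.73 ± 0.19. Of 3 measured yolk protein genes only *vit-2* was called, at -5.52 ± 0.78. The others, named after their values were seen, had means above 0, *vit-5* at 0.52 ± 0.68 and *vit-6* at 0.14 ± 0.41. The arrays ran the same way, with correlations over 19512 probes of 0.739 between preps 1 and 2, 0.81 between preps 1 and 3, and 0.76 between preps 2 and 3. As whole animals were used, fewer cells of a type and less RNA per cell cannot be told apart.

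*mtl-1* and *ftn-1* were called negative and lay below 0 in every prep. *mtl-2*, *ftn-2*, *smf-1* and *smf-2* passed in neither direction, and *mtl-2* was below 0 in preps 1 and 3. Of all features, 13.8% were called negative, 13.5% positive and 27.3% in either direction, beside 2 of the 6 genes. With 6 genes this count shows little about the set as a whole. No gene of the set was called positive by limma over all features, and *ftn-2* alone had a positive ratio at an unadjusted p under 0.05.

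**Figure D1:**
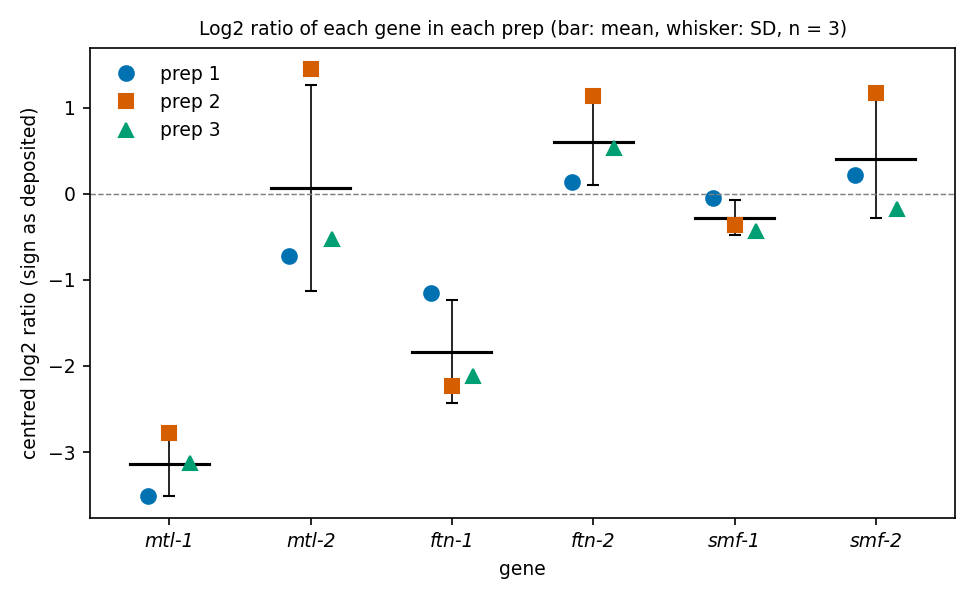
Centred log2 ratio (vertical axis, sign as deposited) of each of the 6 measured genes (horizontal axis) in preps 1, 2 and 3, shown as coloured symbols, with the mean as a bar and the SD as a whisker (n = 3). *mtl-1* and *ftn-1* lie below 0 in all preps, and *mtl-2* lies at 1.45 in prep 2 and below 0 in the other preps.

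*mtl-1* encodes a metallothionein whose transcript is known to increase with cadmium and with low insulin signalling. Its log2 ratio was -3.52 in prep 1, -2.78 in prep 2 and -3.13 in prep 3. All preps were far below 0 and lay within 0.741 log2 units of each other. The mean was -3.14 ± 0.37, an 8.82-fold difference from the reference, with a limma adjusted p of 7.121e-07. The 95% interval, from limma's moderated variance as for each single gene here, was -3.58 to -2.70. Such intervals rest on 11.8 degrees of freedom, against 2 from the preps alone, which narrows them. If the ratio is mid-L3 over reference, the transcript was 8.82-fold lower in mid-L3. It ranked 82nd lowest of the 19075 features, and lay at the 0.398, 0.561 and 0.681 percentiles of the arrays of preps 1, 2 and 3.

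*mtl-2* encodes the other metallothionein, which is known from the intestine, where metal induces it. Its log2 ratio was -0.72 in prep 1, 1.45 in prep 2 and -0.52 in prep 3. Prep 2 was thus 2.74-fold above an equal ratio and preps 1 and 3 were 1.65-fold and 1.44-fold below it. The mean of 0.07 ± 1.2 did not pass (limma adjusted p = 0.919), with a 95% interval of -0.67 to 0.81. Moderation narrowed this interval, through the added degrees of freedom and a lowered variance, and the values of preps 1 and 2 lay outside it. The mean describes none of the preps: it was -0.62 without prep 2, where the limma adjusted p was 0.0557. Its SD exceeded that of 99.4% of features, and the gap between prep 2 and the mean of the other preps, 2.08 log2 units, stood at the 99.9 percentile.

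**Figure D2:**
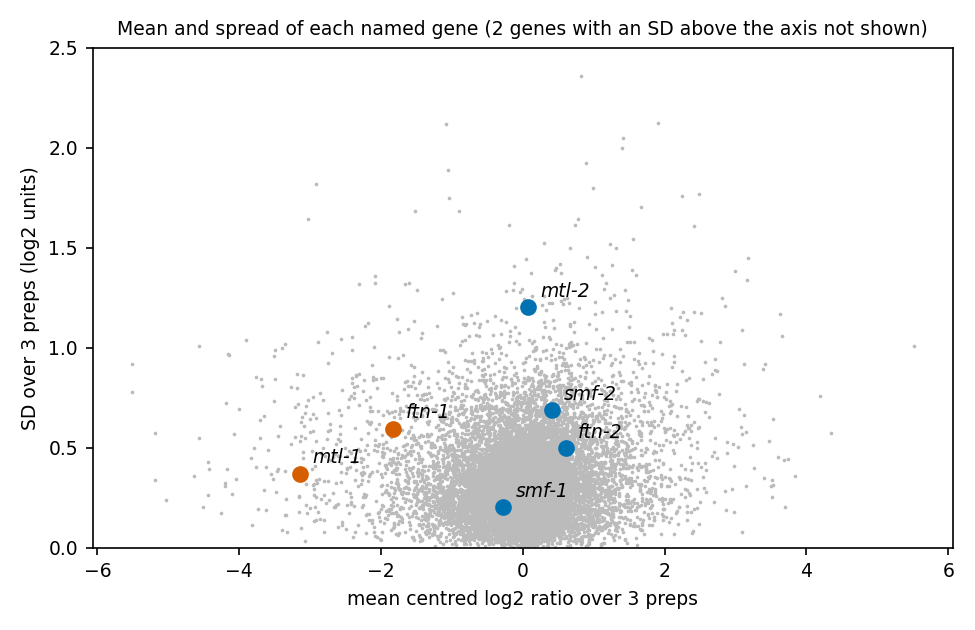
Mean (horizontal axis) and SD (vertical axis) of the centred log2 ratio over 3 preps for the named genes (grey) and for the 6 genes, in orange where called and in blue where not. The 2 named genes with an SD above the axis are not shown. *mtl-2* has the highest SD of the 6, at 1.2, near a mean of 0, whereas *mtl-1* lies at -3.14 with an SD of 0.37.

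*ftn-1* encodes a ferritin heavy chain of the intestine whose transcription is known to be lowered when iron is scarce, through HIF-1. Its log2 ratio was -1.15 in prep 1, -2.23 in prep 2 and -2.12 in prep 3. Preps 2 and 3 were close to each other and prep 1 was nearer to 0. The mean was -1.83 ± 0.60, a 3.56-fold difference, with a limma adjusted p of 0.0001003 and a 95% interval of -2.33 to -1.33. It ranked 390th lowest of the 19075 features. Read as mid-L3 over reference, the transcript was 3.56-fold lower in mid-L3.

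*ftn-2* encodes the more broadly used ferritin, which also responds to iron but less strongly. Its log2 ratio was 0.14 in prep 1, 1.13 in prep 2 and 0.53 in prep 3. All preps were above 0, and prep 2 was the highest. The mean of 0.60 ± 0.50, a 1.52-fold difference, narrowly missed the threshold (limma adjusted p = 0.0586), although the 95% interval before adjustment, 0.13 to 1.08, lay above 0. Moderation narrowed that interval, through 11.8 degrees of freedom in place of 2 and a lowered variance. The SD of *ftn-2* was above that of 82.7% of features. The call turned on the setting. With all 3 arrays the limma adjusted p was 0.0328 when centred on the mean and 0.159 with density-peak centring. Without prep 1 the mean was 0.83 and passed (limma adjusted p = 0.0228), and without prep 2 it was 0.34 and did not (limma adjusted p = 0.265). These p-values from 2 arrays cannot be set beside those from 3.

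*smf-1* encodes a transporter of the apical face of the intestine. Its log2 ratio was -0.05 in prep 1, -0.36 in prep 2 and -0.42 in prep 3. The values were all slightly below 0, and the mean of -0.28 ± 0.20 did not pass (limma adjusted p = 0.328). The 95% interval of -0.69 to 0.13 includes 0. *smf-1* had the least spread of the 6 genes, with an SD above that of 28.6% of features.

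*smf-2* is a paralog next to *smf-1* on chromosome X, with no protein-coding gene between them in the RefSeq gene table of WBcel235. Its log2 ratio was 0.22 in prep 1, 1.17 in prep 2 and -0.17 in prep 3. Prep 2 stood above the other preps, and the sign was not shared. The mean of 0.41 ± 0.69 did not pass (limma adjusted p = 0.262), with a 95% interval of -0.13 to 0.94, and without prep 2 it was 0.03. The gene overlaps *nas-11*, an astacin protease gene, whose own log2 ratios were 0.59, 0.05 and 0.58 in preps 1, 2 and 3, so prep 2 was its lowest. Whether the *smf-2* probe also reads *nas-11* was not tested.

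**Figure D3:**
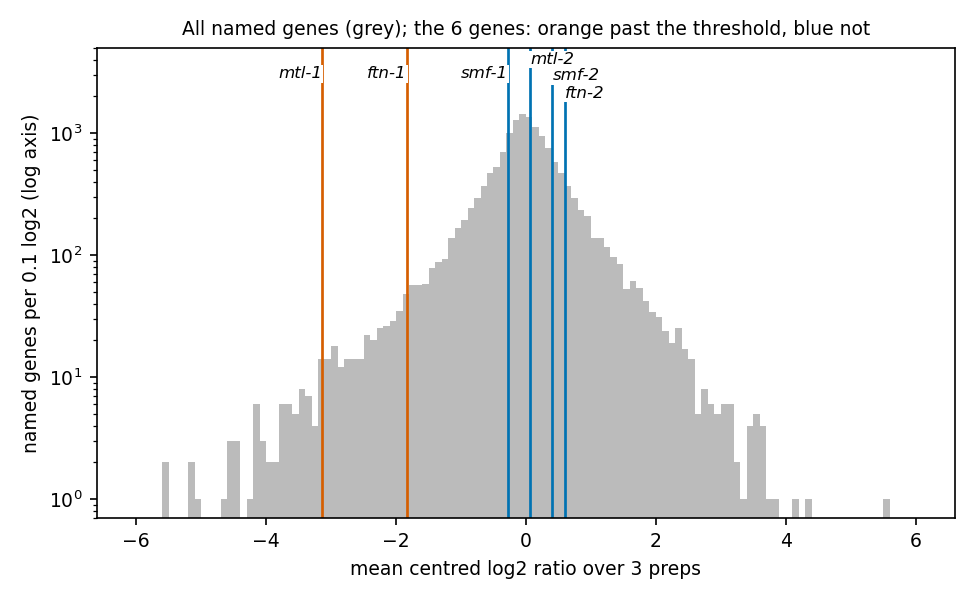
Distribution of mean centred log2 ratios over 3 preps (horizontal axis) for all named genes, as the number of genes per 0.1 log2 units on a log axis (vertical), with the 6 genes as vertical lines, orange where called and blue where not. *mtl-1* at -3.14 and *ftn-1* at -1.83 lie in the lower tail, and the other 4 genes lie between -0.28 and 0.60.

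Ordered by mean ratio, the genes ran from *mtl-1* through *ftn-1*, *smf-1*, *mtl-2* and *smf-2* to *ftn-2*. The 3 values of *mtl-1* lay below all values of *ftn-1*, and those of *ftn-1* lay below all values of the other 4 genes. Among *smf-1*, *mtl-2*, *smf-2* and *ftn-2* the values of neighbours in the order overlapped. Within arrays, the difference *mtl-1* minus *mtl-2* was -2.79, -4.23 and -2.60 log2 units in preps 1, 2 and 3. Its mean was -3.21 ± 0.89, a 9.25-fold gap in ratio. *ftn-1* minus *ftn-2* was -1.29, -3.37 and -2.65, with a mean of -2.43 ± 1.05, a 5.41-fold gap. For *smf-1* minus *smf-2* it was -0.68 ± 0.73, with -0.27, -1.53 and -0.26 in the 3 preps, so prep 2 carried most of it. All 3 differences had the same sign in 3 of 3 preps. Their 95% t intervals rest on the spread of the differences alone, without moderation. The interval was -5.413 to -1.004 for *mtl-1* minus *mtl-2*. It included 0 for the ferritins, at -5.055 to 0.184, and for *smf-1* minus *smf-2*, at -2.502 to 1.134. The exact sign-flip permutation test (two-sided) gave p = 0.25 for each of the 3 pairs, and 0.25 after adjustment over them, which is the smallest p that 3 arrays allow. This exact test could therefore pass none of the differences at 0.05, whatever their size.

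Prep 2 was the highest prep for *mtl-1*, *mtl-2*, *ftn-2* and *smf-2* and the lowest for *ftn-1*. The gap between prep 2 and the mean of the other preps was 0.55 for *mtl-1*, 2.08 for *mtl-2*, -0.60 for *ftn-1*, 0.80 for *ftn-2*, -0.12 for *smf-1* and 1.14 for *smf-2*. Ratios on these arrays may also vary with the place of the probe. The probes of *mtl-2* and *smf-2* fell in the same sector of 25 by 25 spots, as inferred from the order of probes, and that sector had a median of -0.25 in prep 2. Centred on their sector, the prep 2 values were 1.70 for *mtl-2* and 1.42 for *smf-2*, larger than before. The part of probe place in these values was not tested.

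The other metal genes had more positive than negative calls. Over 5 lists holding 61 genes, 48 were measured, of which 16 were positive (33.3%, against 13.5% of all features) and 4 negative (8.33%, against 13.8%). Their median was 0.27, against 0.008 over all features. The lists were drawn up with earlier results of these data known, and the counts are a description.

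Of 11 measured iron genes, for export, sensing and iron-sulfur assembly, 2 were positive, 1 was negative and 8 passed in neither direction, with a median of 0.03. *rhy-1*, which acts with *egl-9* to hold down HIF-1, had ratios of -2.1, -1.62 and -2.11 in preps 1, 2 and 3, all close together. Its mean was -1.94 ± 0.28 (limma adjusted p = 1.766e-05). The positive genes were *nfs-1*, for the cysteine desulfurase of iron-sulfur clusters, at 0.85 ± 0.19, and *iscu-1*, for their scaffold, at 0.60 ± 0.35 (limma adjusted p = 0.0433). *iscu-1* was at 0.10 with local centring and did not pass there (limma adjusted p = 0.643). Without prep 2 the list had 1 positive and 2 negative genes. Named after their values were seen, *hif-1* was at 0.33 ± 0.18, *egl-9* at -0.54 ± 0.69 and *aco-1*, the cytosolic aconitase gene, at -0.11 ± 0.36, none of them called.

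Of 6 measured heme genes 4 were positive and the other 2 passed in neither direction, with a median of 0.95. *hrg-7*, which encodes a secreted protein of heme signalling between the intestine and neurons, had ratios of 3.76, 3.94 and 3.08, and a mean of 3.59 ± 0.45, a 12.1-fold difference (limma adjusted p = 3.802e-07). *hrg-4*, for the heme importer of the apical intestine, was at 1.77 ± 0.17, and *mrp-5*, for the exporter that passes heme out of the intestine, at 1.24 ± 0.15. These genes had the sign opposite to *mtl-1* and *ftn-1* in all preps.

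Of 16 measured zinc genes 4 were positive, 2 negative and 10 neither, with a median of 0.24. *cdf-2*, for the transporter that stores zinc in gut granules, had ratios of 0.88, 1.82 and 0.53, with prep 2 highest, as for *mtl-2*. Its mean was 1.08 ± 0.67 (limma adjusted p = 0.0054). Next were the zinc importer genes *zipt-2.4* at 0.90 ± 0.30 and *zipt-16* at 0.85 ± 0.45. The negative genes were *zipt-1* at -0.88 ± 0.33 and *zipt-7.1* at -0.54 ± 0.16, which passed barely (limma adjusted p = 0.0499) and of whose probes 1 lay at -0.16. Without prep 2 the list had 2 positive genes, and with any 1 prep left out it had 1 negative gene. *hizr-1*, for the nuclear receptor that senses high zinc and is known to activate *mtl-1* and *cdf-2*, was at 0.25 ± 0.40 and not called (named after its value was seen).

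Of 4 measured copper genes only *sco-1*, for a copper chaperone of cytochrome oxidase, was called, at 0.73 ± 0.25, a call that was lost without prep 3, and the list median was 0.04. Of 11 measured cadmium genes 5 were positive, 1 negative and 5 neither, with a median of 0.48 and medians of 0.05, 0.92 and 0.79 in preps 1, 2 and 3. The highest were *cdr-7* at 1.47 ± 0.61 and *cdr-6* at 1.32 ± 0.82, of a family named for its response to cadmium, and *mrp-1*, for an ABC transporter of cadmium tolerance, at 1.15 ± 0.35. *numr-2*, a nuclear metal-responsive gene, had ratios of -2.49, -3.80 and -3.03 and a mean of -3.11 ± 0.66, close to that of *mtl-1*. Its near-identical copy *numr-1* was at 0.13 ± 0.29 and not called, and as the probes may share target sequence both values are uncertain. *pcs-1*, for phytochelatin synthase, which makes the worm's other cadmium-binding peptides, was at -0.06 ± 0.20 (named after its value was seen).

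**Figure D4:**
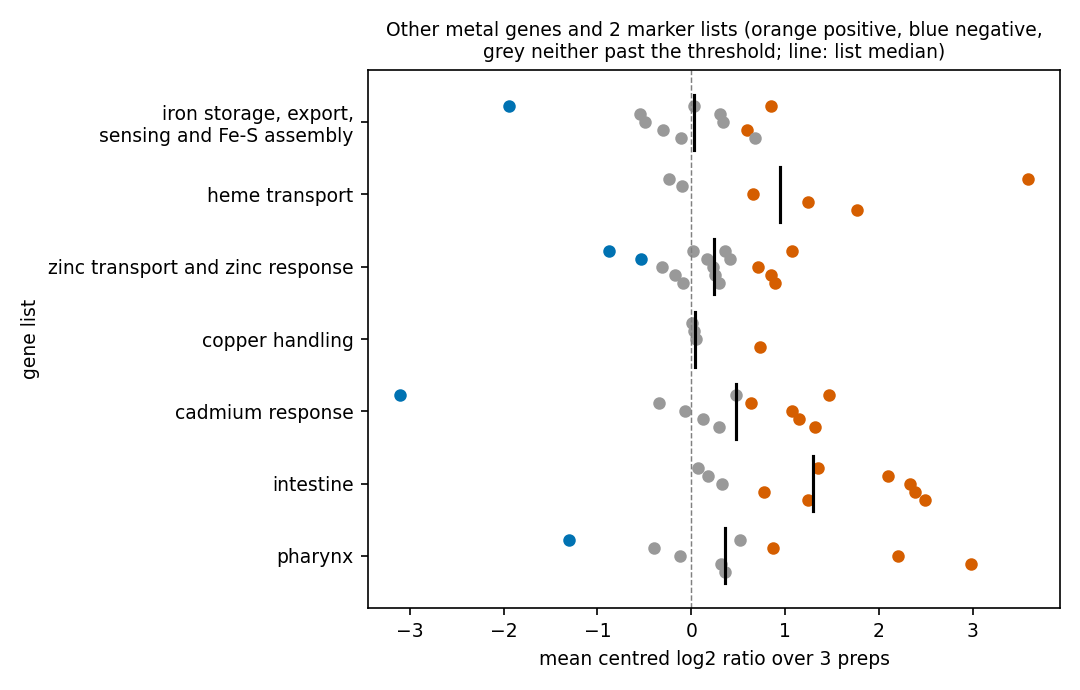
Mean centred log2 ratio over 3 preps (horizontal axis) of each measured gene of the 5 metal lists and of the intestine and pharynx marker lists (vertical axis), orange where called positive, blue where called negative and grey where neither, with the list median as a line. The heme list has a median of 0.95 and the intestine markers one of 1.3, and *numr-2* and *rhy-1* are the lowest points.

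Most markers of the intestine list had positive ratios on the same arrays. Of 10 markers 7 were positive and 3 neither, with means from 0.07 to 2.49 and list medians of 1.22, 1.53 and 1.27 in preps 1, 2 and 3. *act-5*, the actin of the intestinal brush border, was at 2.49 ± 0.60, the peptide transporter gene *pept-1* at 2.38 ± 0.07 and *vha-6*, for a V-ATPase subunit of the apical membrane, at 2.33 ± 0.60. The markers not called, named after their values were seen, were *elt-2* at 0.32 ± 0.22, *vha-7* at 0.18 ± 0.20 and *elt-7* at 0.07 ± 0.34. The negative ratios of *mtl-1* and *ftn-1* were thus opposite in sign to those of the 7 called markers. Of 9 measured pharynx markers 3 were positive, 1 negative and 5 neither, with medians of 0.47, 0.40 and 0.28 in preps 1, 2 and 3. The pharyngeal gland gene *phat-4* was at 2.98 ± 0.18, the pharyngeal myosin genes *myo-1* and *myo-2* at 2.21 ± 0.20 and 0.88 ± 0.14, and *phat-5* at -1.3 ± 0.76. The part of either tissue's share of RNA in the ratios of the 6 genes was not tested.

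The genes whose values lay closest were listed by Euclidean distance over the 3 centred ratios. For *mtl-1* they were *srx-95*, *W09C3.7* and *C06B3.6*, at distances of 0.267, 0.284 and 0.298 log2 units. For *ftn-1* they were *fem-3*, *twk-7* and *cht-1*, at 0.294, 0.314 and 0.315. For *smf-2*, the *smf* gene farthest from 0, they were *B0391.3*, *cdh-4* and *rab-1*, at 0.0925, 0.114 and 0.117. Within a distance of 1 there were 74 other named genes for *mtl-1*, 173 for *ftn-1*, 341 for *mtl-2*, 3161 for *smf-2*, 3559 for *ftn-2* and 7837 for *smf-1*. These counts depend on how far the 3 values of a gene lie from 0, and are not a separate result. The median absolute mean over all features was 0.30.

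**Figure D5:**
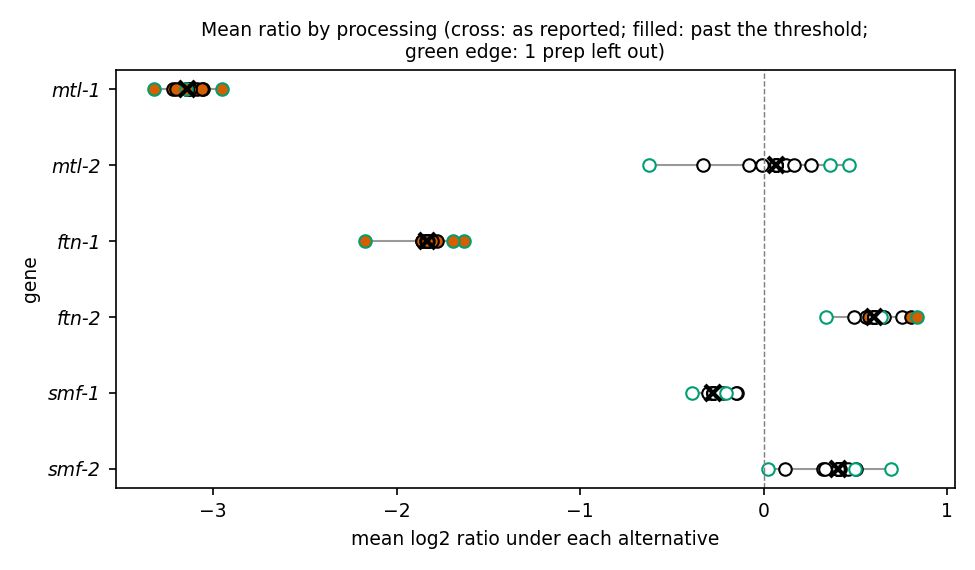
Mean log2 ratio (horizontal axis) of the 6 genes (vertical axis) as reported (cross) and under each of 17 processing alternatives (circles, filled where past the threshold, with a green edge where 1 prep was left out). *mtl-1* stayed between -3.32 and -2.95 and *ftn-1* between -2.17 and -1.63, and *mtl-2* lay on both sides of 0.

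Under the 17 alternatives *mtl-1* ranged from -3.32 to -2.95 and *ftn-1* from -2.17 to -1.63, and both passed the threshold in each. Some of the alternatives could not move a mean, as described further below. *smf-1* ranged from -0.39 to -0.15 and *smf-2* from 0.03 to 0.70, and neither passed in any. *ftn-2* was positive throughout but passed in 5 of the 17.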

How the data were processed

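The deposited table holds log2 ratios made by the authors, 1 per probe and array. How they were scanned, background-corrected and normalized is not stated in the labels or the table. Without signal intensities, which were not used here, weak spots were kept beside strong ones. The platform annotation, an old one, gave 1 gene symbol for 15655 of 20000 probes, updated through the Entrez identifier for 15569 with the RefSeq gene table of WBcel235. Probes with several genes (198) or no listed gene (4147) stayed unnamed. Each array was centred on its median over 19512 probes measured on every array, and probes of a gene were averaged. The mean ratio was set against 0 by limma (version 3.58.1, R 4.3.3, intercept only, eBayes, two-sided), which leaves out the reference's own spread. Each variance rested on 2 degrees of freedom of its own and 9.8 from the prior. The fit was tested on simulated data, and the permutation test on short sets of values whose p is known.

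The gene lists (iron, heme, zinc, copper and cadmium genes, and markers of intestine, pharynx, oocyte and yolk) and the members were chosen with earlier results of these data known. Genes named are the members, up to 3 called genes a direction from each list, or the farthest where none was called, and the nearest genes of the farthest member of each family. Figures were drawn with matplotlib 3.10.9.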

Additional observations from a re-analysis of the deposited data

How the results depend on the processing

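Only 1 group of arrays exists, so no paired analysis was possible because there is no other group to pair with. Each of the 6 genes was recomputed under 17 alternatives, and 93 values kept their direction and their side of the threshold, against 9 that did not. Several alternatives could not move a mean, since each gene has 1 probe with a value on every array. These include at least 2 arrays per probe, each probe on its own and robust eBayes. Named features only, the old annotation symbols and a minimum absolute mean of 1 are the others. The 93 thus include values whose mean was fixed in advance. The 9 exceptions concern *mtl-2* and *ftn-2*. *mtl-2* changed sign, without passing, to -0.080 at equal median absolute deviation, -0.011 with quantile normalization and -0.33 with array weights, and ran from -0.62 (without prep 2) to 0.46 when a prep was left out. *ftn-2*, and with it 1 gene of the set in place of 0, passed as positive at 0.61 when centred on the mean, 0.60 as deposited, 0.80 with local centring and 0.57 with quantile normalization, and ran from 0.34 to 0.83 (0 to 1 genes) when a prep was left out. The cause was not tested. The family differences kept their sign in all 8 alternatives tried for each, from -3.51 to -2.70 for *mtl-1* minus *mtl-2*, -3.01 to -1.97 for the ferritins and -0.90 to -0.26 for *smf-1* minus *smf-2*. Over all features, density-peak centring gave 1654 negative calls, and an absolute mean of at least 1 gave 1190 positive and 1239 negative, against 2583 and 2624. In the metal lists, density-peak centring left 1 positive iron gene, 2 positive and 0 negative zinc genes, 3 positive cadmium genes and 2 negative genes in all. The minimum of 1 left 0 positive iron, 1 positive zinc, 0 negative zinc and 0 positive copper genes, and 8 positive and 2 negative genes in all, fewer by construction. Sector centring gave 1 positive and 2 negative iron genes, local centring 1 and 3, and array weights 2 negative iron genes. Negative zinc genes numbered 1 at equal median absolute deviation and with at least 2 arrays per probe. Leaving out a prep gave 1 to 2 positive and 1 to 2 negative iron genes, 2 to 3 positive and 1 negative zinc genes, and 0 to 1 positive copper genes. With 2 arrays the variance is shared differently, and such p-values cannot be set beside those of all 3.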

Other observations

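Of the genes beside *mtl-1* and *ftn-1* on chromosome V, 1 for each was measured, and neither was called. *K11G9.5*, beside *mtl-1*, was at -0.02 ± 0.14. *F19F10.3*, beside *ftn-1*, had log2 ratios of 0.32, -0.47 and -0.74 in preps 1, 2 and 3. Both measured neighbours of *mtl-2* were also not called. *T08G5.1* had log2 ratios of -0.01, 1.02 and -0.04, with prep 2 the highest, and *srh-308* had -0.21, -0.66 and 0.50, with prep 2 the lowest.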
